A study of Mus musculus with 15 samples.

Results

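The comparison set 3 samples of Ly6C+ monocytes against 3 samples of CD8+ dendritic cells (DCs), all sorted from mouse spleen, gene by gene. Genes were kept where at least 3 of these 6 samples reached more than 1 CPM (counts scaled to library size), which held for 12702 of the 38924 gene identifiers in the deposited table. The study sequenced polyadenylated RNA from 15 samples of mouse DC subtypes and monocytes. Besides the 2 groups compared, only the splenic CD4+ DCs are used here, as another splenic DC.

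All groups used here were naïve female C57BL/6 mice, 6 to 8 weeks old by the labels and up to 10 weeks old by the methods. Spleens were digested with collagenase D, and each replicate held cells pooled from 5 mice, so the pools are the replicates. DCs were enriched with CD11c beads, and the CD8+ CD11c+ MHCII+ cells among them were sorted. Monocytes were enriched with CD11b beads before Ly6C+ CD11b+ cells were sorted. Before these gates, live single CD45+ cells without lineage markers were kept, and the antibodies listed for mouse cells include CD3, B220, NK1.1 and Ly6G. Libraries were made with a SMARTer kit from polyadenylated RNA and read on an Ion Torrent instrument. Each DC library was read in 1 run and each monocyte library in 2 runs. Bead type and cell type cannot be told apart. The CD8+ DC samples held 7616834, 7225353 and 8311777 counts on genes, and the monocyte samples held 4880322, 10233914 and 7523451. By library size alone, a count of 0 allows a level of up to 0.361 to 0.415 CPM in a CD8+ DC sample. In a monocyte sample it allows up to 0.293 to 0.615 CPM. The CPM printed for genes are also divided by a TMM factor per sample (1.04 to 1.11), which lowers these limits slightly. Over the 3 samples of a group together, with TMM factors, the limit is 0.1203 CPM in CD8+ DCs and 0.127 CPM in monocytes. Fold bounds for genes with no count rest on this pooled limit. These limits, and the 95% Poisson intervals of ratios, cover counting error only, since the libraries carried no molecular identifiers.

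Splenic CD8+ DCs belong to the type 1 conventional DCs, which depend on the transcription factors IRF8, BATF3 and ID2, take up dead cells and present their antigens on MHC class I. Ly6C+ monocytes leave the bone marrow through the chemokine receptor CCR2, depend on the growth factor receptor CSF1R, and can turn into macrophages or DC-like cells in tissues. The comparison addresses how far the RNA of the monocyte differs from that of a DC subtype in the same organ.

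As a distance between samples, differences in log2 CPM were squared, averaged over genes and rooted. This distance averaged 1.82 over the pairs of a monocyte and a CD8+ DC sample (lowest 1.75, highest 1.86), 0.499 among monocyte samples and 0.636 among CD8+ DC samples. Every distance between the groups was thus larger than every distance within them. CD8+ DCs lay 1.25 from CD4+ DCs, the nearer group, and monocytes lay 1.74 from CD4+ DCs. Monocyte RNA was spread more evenly over genes, with 9.05% to 10.3% of counts in the 10 most abundant genes against 16.9% to 19.1% in CD8+ DCs. Mitochondrially encoded genes took 0.828% to 0.989% of counts in monocytes and 1.32% to 1.72% in CD8+ DCs.

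The genes of the sort markers checked the labels and are no finding. Cd8a had 0, 0 and 0 CPM in monocytes and 347, 338 and 614 CPM in CD8+ DCs. Itgam, which encodes CD11b, had 1035, 1022 and 1139 CPM in monocytes and 8.72, 12.7 and 3.26 CPM in CD8+ DCs. Ly6c2 had 732, 685 and 983 CPM in monocytes and 9.42, 10.6 and 12.1 CPM in CD8+ DCs, while Itgax, which encodes CD11c, had 55.5, 67.6 and 55.8 CPM in monocytes and 553, 519 and 523 CPM in CD8+ DCs. Every sample lay on the side of its label, and all 8 sort-marker genes differed in the direction of the gates (3 higher and 5 lower in monocytes, median log2 fold change -3.28). Ly6c1 and Ly6c2 are near-identical neighbours, and reads that fit both were not counted.

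All tests are edgeR's quasi-likelihood tests with Benjamini-Hochberg adjustment over the 12702 genes, called at an adjusted p under 0.05. Log2 fold changes are monocytes minus CD8+ DCs, with their standard error. Where a value is given as "a against b", it is the CPM of the 3 monocyte samples against that of the 3 CD8+ DC samples. Of the genes tested, 5868 were called (46.2%): 2890 higher in monocytes (22.8%) and 2978 lower (23.4%). The median log2 fold change was -0.03 over all genes, 1.52 among those higher and -1.59 among those lower. With only run 1 of each monocyte library, 2766 were higher and 2898 lower, and with only run 2, 2723 and 2935. With a fold of at least 2 added, 4253 remained (33.5%), 2060 higher and 2193 lower. At least 16-fold separated 415 genes called higher and 487 called lower, and at least 64-fold 183 and 216. Samples of the groups did not overlap for 7787 genes (61.3%), and 5781 of the called genes were among these. By class, 2612 of 11084 protein-coding genes were higher and 2699 lower, against 169 and 120 of 824 long non-coding genes, and 56 and 110 of 522 pseudogenes. The genes called higher held 45.8% to 46.5% of all TPM (counts per exon length, scaled to the same sum in each sample) in monocytes and 11.6% to 13.2% in CD8+ DCs. Those called lower held 15.9% to 16.5% in monocytes and 50.8% to 54.9% in CD8+ DCs. In bulk RNA, fewer cells with a transcript and less of it per cell cannot be told apart.

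**Figure D1:**
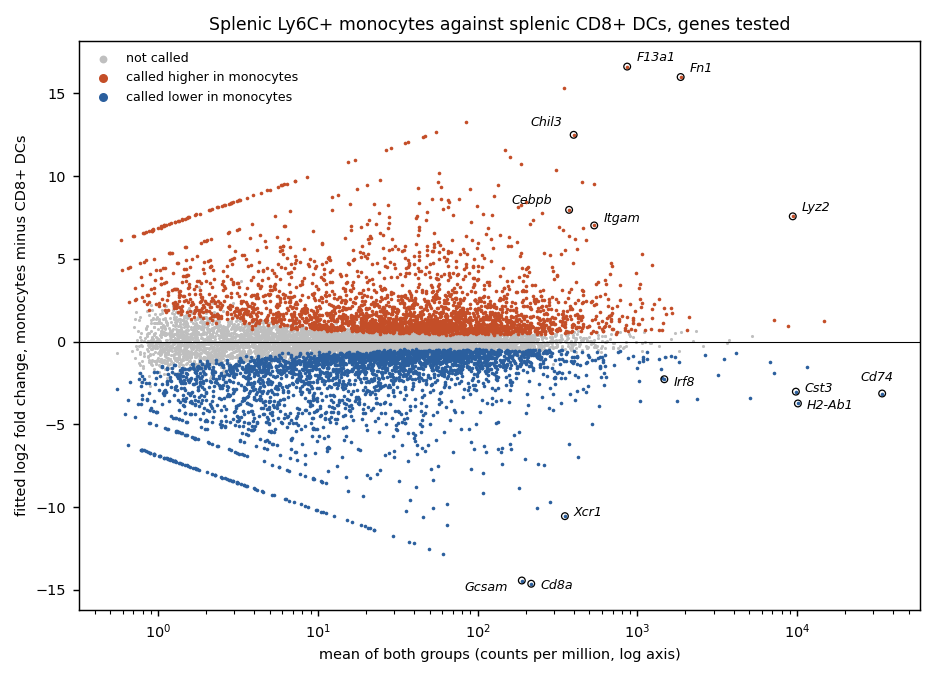
Mean CPM of both groups on a log scale (x axis) and fitted log2 fold change of monocytes minus CD8+ DCs (y axis), 1 point for each of the 12702 genes tested, with 2890 called higher and 2978 called lower in colour. Fitted folds of genes with no count in a group depend on the prior count, and the far ends of the plot hold those genes.

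Members of the DC1 list marked the CD8+ DCs: all 20 were tested and all 20 were lower in monocytes, at a median of -4.49. Irf8, the factor that sets up the lineage, had 439, 535 and 544 CPM in monocytes and 1935, 2344 and 3048 CPM in CD8+ DCs. Batf3, its partner at shared DNA sites, had 23.5, 23.9 and 27.6 CPM in monocytes and 93.4, 87.4 and 95.9 CPM in CD8+ DCs. Id2, which blocks E proteins, had 101, 126 and 85.7 CPM in monocytes and 802, 816 and 919.5 CPM in CD8+ DCs. All 3 factors were kept at a measurable level in every monocyte sample and were several-fold higher in every CD8+ DC sample (Irf8 -2.27 ± 0.27, adjusted p = 1.0e-06; Batf3 -1.88 ± 0.19, adjusted p = 1.3e-07; Id2 -3.02 ± 0.27, adjusted p = 3.8e-08). The surface receptors of the list were further apart than its factors, with a median of -6.60 over 10 receptors against -2.27 over the 3 factors.

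Xcr1 (chr9:123852315-123862029, mm10), the receptor for a chemokine that CD8+ T cells secrete, had 0.191, 0.848 and 0.127 CPM in monocytes and 509, 698 and 902 CPM in CD8+ DCs. Clec9a (chr6:129408862-129424764), which binds the actin of dead cells, had 1.72, 1.602 and 1.78 CPM in monocytes and 305, 278 and 265 CPM in CD8+ DCs. Cadm1 (chr9:47530173-47857637), an adhesion molecule, had 0.383, 0.848 and 0.636 CPM in monocytes and 434, 575 and 698 CPM in CD8+ DCs. For each of these the monocyte samples stayed under 2 CPM while every CD8+ DC sample was at 265 CPM or above. The log2 fold changes were -10.55 ± 0.70 for Xcr1 (-12.01 without monocyte replicate 2), -7.37 ± 0.30 for Clec9a and -9.70 ± 0.37 for Cadm1, with adjusted p of 6.8e-10, 2.5e-12 and 2.0e-12. Itgae, the chain known as CD103, had 0.383, 0.283 and 0.254 against 70.8, 111 and 132 CPM (-8.39 ± 0.70, adjusted p = 1.3e-08). Xcr1, Cadm1 and Itgae were under 1 CPM in every monocyte sample. The filter thus admits them only through the CD8+ DC samples, which sets their direction. Gcsam, a signalling protein known from germinal centres, had no count in any monocyte sample and 336, 468 and 330.2 CPM in CD8+ DCs, at least 2988-fold apart (1649.9-fold without monocyte replicate 2).

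Among other members, Ly75, an endocytic lectin-like receptor, had 2.297, 1.51 and 2.54 against 126, 175 and 265 CPM. Btla, an inhibitory receptor, had 29.5, 28.5 and 38.6 against 472, 522 and 584 CPM. These were low in every monocyte sample but not at 0. Wdfy4, needed to cross-present antigen from cells, had 166, 159.7 and 152 against 1448, 1836 and 2452 CPM (-3.59 ± 0.28, adjusted p = 6.6e-09). Ppt1, a lysosomal thioesterase, had 247, 299 and 261 against 2463, 2816 and 4469 CPM, and Naaa, a lipid amidase, had 291, 347 and 349 against 1226, 1605 and 2312 CPM. Both groups thus carried these RNAs at 152 CPM or above, with monocytes lower in every sample. Snx22 was also lower (-2.14), with 20.4% of its exon length shared with Ppib. All 20 members were also called between CD8+ and CD4+ DCs, where 3846 of all genes were (30.3%). Ppt1 averaged 105 ± 16.98 CPM in CD4+ DCs, below monocytes, as did Irf8 (51.8 ± 14.4), Naaa (46.3 ± 2.51), Ifi205 (15.6 ± 2.81), Rab7b (3.99 ± 1.73) and Cd36 (13.05 ± 7.97), with SD over 3 samples. Monocytes thus held more of these 6 RNAs than the other splenic DC did, a comparison of means chosen after the values were seen and not tested.

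Of 10 pan-DC genes other than the sort marker Itgax, 8 were lower in monocytes and none was higher, at a median of -3.76. Kit, the stem cell factor receptor, had 2.68, 4.15 and 1.398 CPM in monocytes and 393, 393 and 394 CPM in CD8+ DCs. Zbtb46, a factor of conventional DCs, had 7.27, 6.41 and 6.23 CPM in monocytes and 306, 357 and 337 CPM in CD8+ DCs. Flt3, the receptor of the main DC growth factor, had 49.6, 113 and 53.3 CPM in monocytes and 962, 1318 and 963 CPM in CD8+ DCs. The groups were far apart for each, and monocytes still had 49.6 to 113 CPM of Flt3. Log2 fold changes were -7.12 ± 0.32 (adjusted p = 6.6e-12) for Kit, -5.66 ± 0.23 (adjusted p = 2.5e-12) for Zbtb46 and -3.90 ± 0.31 (adjusted p = 8.3e-09) for Flt3. None of these 3 was called between CD8+ and CD4+ DCs (Kit -0.59 ± 0.23, adjusted p = 0.061; Zbtb46 -0.41 ± 0.18, adjusted p = 0.099; Flt3 0.15 ± 0.28, adjusted p = 0.71). Kmo, an enzyme of tryptophan breakdown, was lower in monocytes as well (-3.64 ± 0.28), as were Bcl11a (-2.27 ± 0.33), the migration receptor Ccr7 (-3.88 ± 0.34) and the peptidase Dpp4 (-2.17 ± 0.21). Hepacam2 was at 0.383, 0.565 and 0.509 CPM in monocytes and 46.9, 42.7 and 77.1 CPM in CD8+ DCs. The members not called were Relb (131, 103 and 108 against 162, 167 and 149 CPM, adjusted p = 0.086) and Fgl2 (216, 193 and 277 against 233, 225 and 498 CPM, adjusted p = 0.31). Relb did not overlap between the groups and was called when only the 6 samples were fitted (-0.47, adjusted p = 0.0186).

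Of 26 monocyte identity genes other than the sort markers, 25 were higher in monocytes, at a median of 5.01, and Mertk was lower. F13a1 (chr13:36867178-37050244), the A chain of coagulation factor XIII, had 1739, 1546 and 1893 CPM in monocytes and no count in CD8+ DCs, at least 14349.5-fold apart (9225-fold without CD8+ DC replicate 3). Hp (chr8:109575130-109579172), which encodes haptoglobin, had 576, 774 and 738 CPM against no count, at least 5786-fold (3719.9-fold without CD8+ DC replicate 3). Fn1 (chr1:71585523-71653171), fibronectin, had 4078, 2814 and 4300.3 CPM against 1 count over the CD8+ DC samples, a ratio of 93044 (95% interval 16699.6 to 3675050.0; at least 20458 without CD8+ DC replicate 1). Chil3, a chitinase-like protein, had 919.6, 651 and 823 CPM against 3 counts, a ratio of 6634 (95% interval 2270.1 to 32170.4; 4376 without CD8+ DC replicate 1; 13882 without CD8+ DC replicate 2). For these genes the CD8+ DC level was at or near the limit of the depth. Vcan, a matrix proteoglycan, had 40.4, 60.3 and 45.8 CPM against 1 count, a ratio of 1217 (95% interval 219 to 48087; at least 268 without CD8+ DC replicate 1).

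Lyz2, a lysozyme, was the most abundant gene of the monocytes by TPM, at 39274 ± 1223 TPM (mean and SD, n = 3) against 189 ± 45.3 in CD8+ DCs. Its counts were 17984, 18708 and 19337 CPM in monocytes and 90.2, 79.9 and 124 CPM in CD8+ DCs. Every monocyte sample was more than 100-fold above every CD8+ DC sample (7.58 ± 0.41, adjusted p = 6.1e-11). Csf1r, the receptor of the macrophage growth factor, had 2359, 2461 and 2342 CPM in monocytes and 136, 89.5 and 60.1 CPM in CD8+ DCs, with 17.8% of its exon length shared with Hmgxb3. Ccr2 had 1253, 1377 and 1349.9 CPM in monocytes and 48.1, 62.2 and 59.8 CPM in CD8+ DCs, and Cx3cr1, the fractalkine receptor, had 496, 486 and 549 CPM in monocytes and 14.96, 10.2 and 11.9 CPM in CD8+ DCs. Cd14, a receptor for bacterial lipopolysaccharide, had 773, 775 and 906 CPM in monocytes and 20.9, 18.03 and 10.7 CPM in CD8+ DCs. No samples of the groups overlapped for these receptors, and log2 fold changes were 4.65 ± 0.31, 4.55 ± 0.29, 5.36 ± 0.33 and 5.63 ± 0.30, in that order. Ccr2 was lower still in CD4+ DCs (16.8 ± 3.09 CPM; CD8+ minus CD4+ DCs 1.75 ± 0.26, adjusted p = 6.5e-05).

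Other members showed smaller gaps. Plac8 had 1060.3, 1415 and 1193 against 331, 195 and 303 CPM. S100a4, a calcium-binding protein, had 256, 270.4 and 283 against 67.03, 31.8 and 12.1 CPM (2.87 ± 0.40; 3.62 without CD8+ DC replicate 1), and Adgre1, the F4/80 antigen, had 397, 362 and 447 against 46.7, 47.98 and 16.4 CPM (3.44 ± 0.39). CD4+ DCs had 399 ± 95.7 CPM of S100a4 and 662 ± 185 CPM of Adgre1, so both genes separated CD8+ DCs from CD4+ DCs as well as from monocytes. Treml2 was low in both groups (8.804, 7.26 and 10.4 against 1.65, 3.58 and 2.92 CPM, 1.70 ± 0.57, adjusted p = 0.02) and lost its call without CD8+ DC replicate 1 (adjusted p = 0.0823) and without monocyte replicate 3 (adjusted p = 0.0660). Mertk, a receptor for dying cells that is used as a macrophage marker, had 1.34, 2.83 and 1.78 against 3.18, 7.56 and 5.16 CPM (-1.35 ± 0.41, adjusted p = 0.012). It lost its call with limma voom (adjusted p = 0.0529), without CD8+ DC replicate 2 (0.0716) and without monocyte replicate 1 (0.0503).

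**Figure D2:**
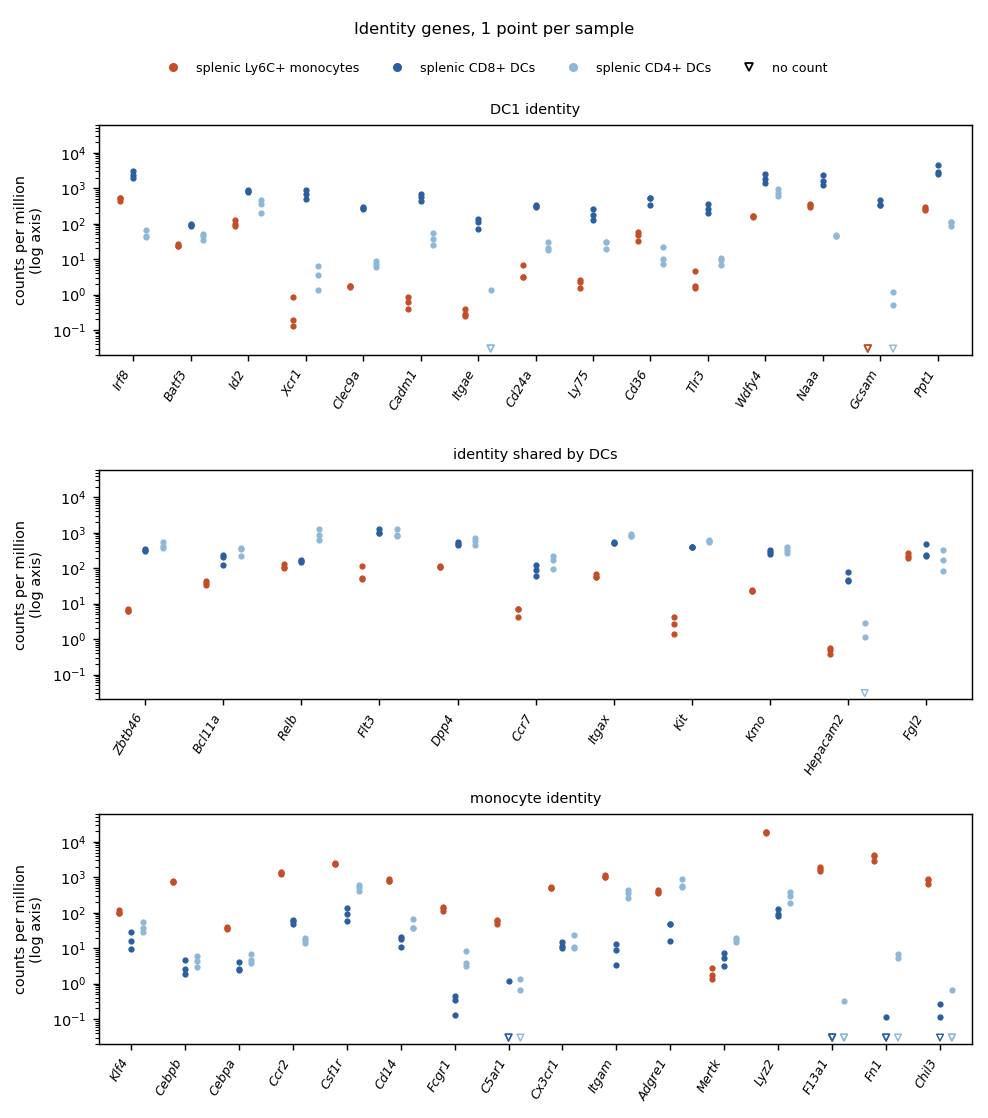
CPM on a log scale (y axis) of genes chosen from the DC1, pan-DC and monocyte identity lists (x axis), 1 point for each of the 3 monocyte, 3 CD8+ DC and 3 CD4+ DC samples, with open triangles for no count. All 20 DC1 genes tested were called lower and 25 of 26 monocyte genes other than sort markers higher in monocytes.

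The 12 largest fitted fold changes each way, among called genes whose higher group averaged 10 CPM or more, were mostly genes with no count in the lower group. Over the whole comparison, 77 genes had no count in CD8+ DCs and 106 had none in monocytes. The filter admits such a gene only when all 3 samples of the other group pass 1 CPM, so its direction is set by the filter. The same holds for any gene named here that stays at or under 1 CPM by library size in every sample of a group. Examples are Xcr1, Cadm1, Itgae, Hepacam2, Fcgr1, Osm, Ldhb and Cenpf. On the monocyte side stood, besides F13a1, Hp, Fn1 and Chil3, a set of genes of varied function. Arhgef37, a predicted exchange factor, had 179, 157 and 174 CPM and was at least 1414-fold above CD8+ DCs (909-fold without CD8+ DC replicate 3). Plcb1, a phospholipase C, had 117, 93.4 and 118 CPM and was at least 909-fold above. Mmp8, a collagenase of granules, had 84.6, 81.7 and 113 CPM (at least 775-fold). Trem2, a lipid-sensing receptor known from macrophages and microglia, had 71.8, 73.5 and 74.2 CPM (at least 608-fold). Sgms2, a sphingomyelin synthase, had 76.6, 32.5 and 102 CPM, Galnt9, a glycosyltransferase, 57.03, 56.2 and 58.1 CPM, and Fam20c, a secretory pathway kinase, 57.99, 39.8 and 61.7 CPM. These 3 were at least 586-fold, 475-fold and 442-fold above CD8+ DCs. Apol7d had 88.6, 71.5 and 113 CPM, but 12.6% of its exon length lay over Fn1, so its counts are uncertain.

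On the CD8+ DC side, Cd8a and Gcsam led, at least 3421-fold (1889-fold without monocyte replicate 2) and 2988-fold above monocytes. Serpinb6b, a protease inhibitor, had 114, 71.7 and 179.9 CPM and no count in monocytes (at least 963-fold). Gpr4, a proton-sensing receptor, had 69.3, 70.5 and 83.98 CPM (at least 589-fold), and Gp2, a receptor for type 1 fimbriae of bacteria, had 51.1, 64.3 and 123 CPM (at least 629-fold). Il12b, the p40 chain of interleukins 12 and 23, had 19.8, 33.01 and 81.7 CPM (at least 354-fold). It varied about 4-fold among the CD8+ DC samples. Cd207, langerin, had 45.8, 36.98 and 35.03 CPM (at least 310.4-fold), Dkk3, a secreted protein of the Dickkopf family, 41.7, 45.6 and 89.7 CPM (at least 466-fold), and Fndc5 27.6, 30.6 and 68.4 CPM (at least 333-fold). The calcium channel chain Cacna1e had 52.7, 45.9 and 36.04 CPM, at least 354-fold above. The non-coding gene 9530059O14Rik had 101, 112 and 85.6 CPM (at least 787-fold). It was not called between CD8+ and CD4+ DCs (0.33 ± 0.25, adjusted p = 0.35), while the other genes of this side were. Leaving out a sample lowered such bounds by up to 2.03-fold and raised them by up to 1.39-fold.

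Of 63 myeloid transcription factors tested (64 listed), 40 were higher and 10 lower in monocytes, at a median of 0.91. The C/EBP, KLF and MAF families leaned furthest, with 11 of 12 higher and none lower. Cebpb, which Ly6C-low monocytes need to persist, had 737, 722 and 774 CPM in monocytes and 1.88, 4.51 and 2.58 CPM in CD8+ DCs (7.97 ± 0.44, adjusted p = 6.1e-11), with 20.7% of its exon length shared with Tmem189. Cebpa had 39.2, 37.4 and 35.7 against 4.12, 2.65 and 2.36 CPM (3.61 ± 0.36, adjusted p = 1.3e-07) and Klf4 116, 96.9 and 100.3 against 28.5, 16.3 and 9.21 CPM (2.54 ± 0.36, adjusted p = 9.8e-06). Cebpd (4.28), Maf (2.90) and Klf2 (2.58) were also higher, chosen after their values were seen. The PU.1, IRF and BATF group held 7 higher and 3 lower of 11. Spi1, which encodes PU.1, had 463, 532 and 487 against 199.6, 189 and 250.4 CPM (1.21). Spi1 thus had a smaller absolute fold change than Irf8, a contrast that was not tested. Irf7 (1.52), Irf2 (1.05), Irf1 (0.67) and Irf5 (0.68, 14.2% of exon length shared with Tnpo3) were higher in monocytes, and Spib was lower (-3.02), all named after their values were seen.

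The remaining factors split 22 higher and 7 lower of 40. Nr4a1, an orphan nuclear receptor, was the most abundant factor by TPM and had 2357, 2202 and 2417 CPM in monocytes and 444, 404 and 331 CPM in CD8+ DCs (2.57 ± 0.42, adjusted p = 5.1e-05). Its relative Nr4a3 went the other way, with 0.383, 0.848 and 3.05 against 22.97, 14.7 and 28.7 CPM (-3.90 ± 0.45; -5.00 without monocyte replicate 3). Within the EGR family, Egr2 had 1.53, 4.33 and 1.65 against 29.9, 16.6 and 48.1 CPM (-3.56 ± 0.52; -4.29 without monocyte replicate 2). The related zinc-finger repressors Zeb1 and Zeb2 lay on opposite sides. Zeb1 had 4.21, 2.83 and 3.05 against 48.1, 46.5 and 36.3 CPM (-3.73 ± 0.34, adjusted p = 4.4e-08), while Zeb2 had 670.4, 469 and 642 against 62.7, 34.2 and 16.5 CPM (3.97 ± 0.36, adjusted p = 3.8e-08). Id3 and its relative Id2 were also opposed: Id3 had 15.5, 11.8 and 12.5 against 0, 0 and 0.674 CPM (5.70 ± 0.68; 9.57 without CD8+ DC replicate 3). Nfil3, a factor needed for DC1 development, was higher in monocytes (178, 267 and 193 against 20.97, 14.4 and 16.2 CPM; 3.63 ± 0.28, adjusted p = 3.9e-09), a member named after its values were seen. Tfec, of the MITF family, had 4.59, 8.67 and 5.34 CPM against 1 count over the CD8+ DC samples, a ratio of 155 (95% interval 27.8 to 6108; at least 35.95 without CD8+ DC replicate 2).

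Of 11 genes of MHC class II presentation other than the sort markers H2-Aa, H2-Ab1 and H2-Eb1, 8 were lower in monocytes and Ctss alone was higher, at a median of -2.26. Cd74, the invariant chain, was the most abundant gene of CD8+ DCs at 105774 ± 15853 TPM against 13129 ± 1386 in monocytes, and counts were 6127, 7982 and 6798 CPM in monocytes and 55425, 73677 and 54286 CPM in CD8+ DCs (-3.13 ± 0.35, adjusted p = 6.9e-07). Monocytes thus held less of it in every sample, though it stayed among their 10 most abundant genes. H2-Oa and H2-Ob form the inhibitor of peptide loading. H2-Ob had 3.25, 2.92 and 4.32 against 327, 377 and 258 CPM (-6.52 ± 0.60, adjusted p = 5.2e-08), and H2-Oa 1.34, 2.17 and 2.92 against 223, 186 and 257 CPM (-6.64 ± 0.38, adjusted p = 1.1e-10; 15.2% of exon length shared with another gene). H2-DMb2, of the loading catalyst, had 9.57, 8.29 and 8.64 against 144, 62.96 and 119.6 CPM (-3.63 ± 0.56, adjusted p = 3.1e-05), and the other catalyst chains H2-DMa (-1.34) and H2-DMb1 (-1.43) differed less. Ciita, the class II activator, had 89.2, 116 and 81.5 against 743, 742 and 744 CPM (-2.96 ± 0.50, adjusted p = 7.5e-05), named after its values were seen. Ctss, the protease that trims the invariant chain, had 2238, 2415 and 2238 against 820.2, 785 and 539 CPM (1.68 ± 0.22, adjusted p = 4.2e-06).

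Class I presentation differed less: of 17 genes, 10 were lower and 2 higher, at a median of -0.70 (7 and 3, at -0.41, without CD8+ DC replicate 3). H2-D1 was higher in monocytes (11254, 11162 and 12152 against 5563, 5801 and 6459 CPM; 0.96 ± 0.25, adjusted p = 0.0035) and B2m was not called (2256, 2467 and 2356 against 3028, 2958 and 2489.6 CPM; adjusted p = 0.44). The peptide supply held 8 lower of 10. The immunoproteasome subunits Psmb8 (589, 595 and 661 against 1384, 1702 and 1194 CPM; -1.21 ± 0.22, adjusted p = 1.7e-04) and Psmb9 (97.4, 107 and 109.7 against 295, 283 and 448 CPM; -1.71 ± 0.25, adjusted p = 1.4e-05) were lower, and the third subunit of that kind, Psmb10, was higher (127, 136 and 136 against 76.6, 60.2 and 96.3 CPM; 0.77 ± 0.24, adjusted p = 0.012; not called without CD8+ DC replicate 2, adjusted p = 0.0694). The proteasome activator Psme1 (-1.42 ± 0.21, adjusted p = 1.5e-05) and the chaperone Calr (-1.35 ± 0.21, adjusted p = 4.0e-05) were lower as well.

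Lysosomal genes leaned to monocytes, with 20 higher and 2 lower of 28 tested (31 listed), at a median of 1.53, and 10 of 12 proteases were higher. Lamp1, a membrane protein of lysosomes, had 1055, 1152 and 1108 CPM in monocytes and 163, 126 and 155 CPM in CD8+ DCs (2.90 ± 0.20, adjusted p = 1.3e-09). Ctsc, which activates granule proteases, had 623, 669 and 706 CPM in monocytes and 98.6, 68.7 and 84.5 CPM in CD8+ DCs (2.99 ± 0.22, adjusted p = 2.1e-09). The groups did not overlap for these. Cst3, cystatin C, an inhibitor of cathepsins, was lower and had 2126, 2227 and 2106 CPM in monocytes and 15354, 18878 and 18217 CPM in CD8+ DCs (-3.02 ± 0.23, adjusted p = 3.2e-09). It ranked among the 10 most abundant genes of CD8+ DCs, at 33726 ± 2688 TPM, and CD4+ DCs held 1531 ± 289.7 CPM. Cd63 was lower (1.53, 1.79 and 4.195 against 3.77, 4.77 and 19.6 CPM; -1.89 ± 0.57, adjusted p = 0.011) and lost its call without CD8+ DC replicate 3 (-0.74, adjusted p = 0.240).

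Innate sensors leaned to monocytes, with 31 higher and 6 lower of 50 tested (51 listed), at a median of 1.46. Among 12 Toll-like receptors, 7 were higher and 3 lower. The 3 lower were Tlr3, a sensor of viral RNA, and Tlr11 and Tlr12, sensors of a protozoan profilin. Tlr3 had 1.72, 1.51 and 4.704 CPM in monocytes and 206, 267 and 357 CPM in CD8+ DCs. Tlr11 had 6.51, 12.2 and 5.21 CPM in monocytes and 266, 435 and 365 CPM in CD8+ DCs. Tlr12 had 0.191, 0 and 1.27 CPM in monocytes and 77.3, 96.1 and 131 CPM in CD8+ DCs. Every CD8+ DC sample was above 77 CPM and every monocyte sample at or below 12.2 CPM for these 3, with log2 fold changes of -6.70 ± 0.55 (-7.43 without monocyte replicate 3), -5.45 ± 0.39 and -7.70 ± 0.60 (-10.29 without monocyte replicate 3, -6.93 without monocyte replicate 2).

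Tlr7 and Tlr8, neighbours on the X chromosome (chrX:167304929-167330558 and chrX:167242696-167264329) that sense RNA in endosomes, went the other way. Tlr7 had 198, 279.8 and 239.5 CPM in monocytes and 5.54, 2.52 and 1.68 CPM in CD8+ DCs (6.19 ± 0.35; 6.83 without CD8+ DC replicate 1). Tlr8 had 43.4, 63.2 and 45.5 CPM in monocytes and 1.06, 0.663 and 0 CPM in CD8+ DCs (6.45 ± 0.56; 7.29 without CD8+ DC replicate 1, 5.84 without CD8+ DC replicate 3). No samples overlapped. Among receptors named after their values were seen, Tlr13, a sensor of bacterial ribosomal RNA, had 259.5, 357 and 329 against 60.3, 60.8 and 90.8 CPM (2.16), and Tlr2, a sensor of lipoproteins, had 169.8, 165 and 221 against 30.7, 53.2 and 44.6 CPM (2.11). Tlr6 (1.97) was higher as well, while Tlr9 had 3.06, 5.56 and 3.81 against 1.88, 2.12 and 4.603 CPM and was not called (adjusted p = 0.37). Unc93b1, which carries the endosomal receptors, was the most abundant sensor gene by TPM and not called (1688, 1686 and 1786 against 1217, 1851 and 1552 CPM; adjusted p = 0.6). Of 11 cofactors and adaptors, 7 were higher and none lower.

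Of 15 C-type lectins tested (16 listed), 8 were higher and 3 lower. Clec4e (chr6:123281789-123289870), or Mincle, a receptor for mycobacterial glycolipid, had 114, 111 and 114 CPM in monocytes against 3 counts over the CD8+ DC samples, a ratio of 939.6 (95% interval 322 to 4556; 604 without CD8+ DC replicate 3). Clec4a3 (chr6:122952515-122969875), of the same stretch of chromosome 6, had 613, 776 and 659 CPM in monocytes and 4.71, 9.94 and 4.49 CPM in CD8+ DCs (6.75 ± 0.40, adjusted p = 1.6e-10). CD4+ DCs held 201 ± 37.4 CPM of it, so CD8+ DCs were also below them (-4.98 ± 0.37, adjusted p = 1.6e-08). Others of this cluster were named after their values were seen: Clec4a1 (292, 316 and 301 against 7.54, 7.29 and 1.57 CPM; 5.80), Clec4a2 (4.08), Clec4d (4.32) and Clec4n (1.49) were higher, while Clec4a4 had 5.17, 4.81 and 3.56 against 9.07, 3.45 and 1.12 CPM and was not called. Clec7a, dectin-1, a receptor for fungal glucan, had 354, 316 and 354 against 28.5, 20.4 and 18.9 CPM (3.91 ± 0.27, adjusted p = 1.3e-09), named in the same way.

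Cytosolic sensors held 9 higher and none lower of 12. The members named here were chosen after their values were seen. Ddx58, which encodes the RNA sensor RIG-I, had 115, 96.9 and 121 against 4.48, 2.12 and 3.82 CPM (4.98 ± 0.32, adjusted p = 5.2e-10). Ifih1, the related sensor MDA5, had 111, 92.3 and 116 against 24.03, 18.6 and 20.995 CPM (2.32 ± 0.20, adjusted p = 2.3e-08). Of inflammasome genes, Nlrp3 (80.8, 60.3 and 69.4 against 21.7, 19.1 and 17.9 CPM; 1.84), Nlrc4 (2.51), Casp1 (1.81) and Casp4 (3.01) were higher, and Aim2, which senses DNA, was not called (50.3, 46.5 and 55.2 against 60.1, 50.9 and 40.4 CPM; adjusted p = 0.99). The DNA sensor Cgas (21.2, 23.2 and 15.5 against 32.99, 36.7 and 25.04 CPM; adjusted p = 0.056) was not called either.

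Of 29 interferon-stimulated genes, 26 were higher in monocytes and none lower, at a median of 3.01. Ifitm3, which blocks virus entry, was the most abundant by TPM and had 1258, 1349 and 1341 CPM in monocytes and 55.8, 42.2 and 45.9 CPM in CD8+ DCs (4.78 ± 0.39, adjusted p = 9.8e-09). Oas3 and Oas2 make a second messenger that activates an RNase. Oas3 had 174, 166 and 206 CPM in monocytes and 3.18, 1.86 and 2.47 CPM in CD8+ DCs (6.17 ± 0.27, adjusted p = 5.5e-12). Oas2 had 128, 131 and 158 CPM in monocytes and 1.65, 0.398 and 0 CPM in CD8+ DCs (7.63 ± 0.71; 9.43 without CD8+ DC replicate 1, 7.02 without CD8+ DC replicate 3). Oasl2, a relative, had 328, 341 and 401 CPM in monocytes and 13.7, 10.2 and 6.18 CPM in CD8+ DCs (5.15 ± 0.30, adjusted p = 1.4e-10). Gbp7, a guanylate-binding protein, had 53.01, 56.6 and 75.9 CPM in monocytes and 1.77, 1.19 and 0.786 CPM in CD8+ DCs (5.62 ± 0.39, adjusted p = 1.5e-09). Monocyte samples were at 53.0 CPM or above and CD8+ DC samples at 13.7 CPM or below for the latter 4 genes. CD4+ DCs lay between, at 23.7 ± 5.48 CPM of Oas3, 140.1 ± 25.1 of Oasl2 and 17.5 ± 8.66 of Gbp7. Between CD8+ and CD4+ DCs, 22 of the 29 members were also called, against 30.3% of all genes tested. Irf9 (111, 119 and 127 against 83.2, 79.002 and 105 CPM) and Ifi44 (7.27, 7.73 and 19.7 against 6.83, 5.96 and 9.66 CPM) were not called.

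Promoters of interferon-stimulated genes are shown because the members moved together and such genes are known for a motif, the interferon-stimulated response element (ISRE). RefSeq promoters on GRCm38.p6, 250 bases before to 50 after a start, were matched by symbol for 9167 of the 12702 genes. The core letters GAAANNGAA, searched on both strands and chosen after the values were seen, occurred in 14 of 22 matched promoters of this list (63.6%) and in 5 of 16 of DC1 genes. Over all matched genes 9.03% held them, against 10.5% of genes higher and 8.57% of genes lower in monocytes. A match describes letters and does not show binding. Printed 5′ to 3′ with matches in capitals are the members with the largest fold changes among those with a match: Oas3 (chr5:120777610-120777909, minus strand), Gbp7 (chr3:142530086-142530385, plus strand), Ifit3 (chr19:34583279-34583578, plus strand) and Ifitm3 (chr7:141010695-141010994, minus strand). Ifit3 had a log2 fold change of 5.10.
Oas3: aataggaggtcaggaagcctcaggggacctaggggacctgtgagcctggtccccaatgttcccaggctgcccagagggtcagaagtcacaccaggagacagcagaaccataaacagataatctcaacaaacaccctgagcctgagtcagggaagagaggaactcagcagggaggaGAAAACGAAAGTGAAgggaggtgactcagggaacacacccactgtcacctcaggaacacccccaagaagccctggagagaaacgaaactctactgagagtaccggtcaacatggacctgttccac
Gbp7: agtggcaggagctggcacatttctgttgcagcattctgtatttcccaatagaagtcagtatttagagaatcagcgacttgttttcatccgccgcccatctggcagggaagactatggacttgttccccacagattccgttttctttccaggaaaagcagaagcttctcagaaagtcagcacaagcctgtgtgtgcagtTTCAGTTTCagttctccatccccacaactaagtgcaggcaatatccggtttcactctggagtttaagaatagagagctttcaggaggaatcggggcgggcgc
Ifit3: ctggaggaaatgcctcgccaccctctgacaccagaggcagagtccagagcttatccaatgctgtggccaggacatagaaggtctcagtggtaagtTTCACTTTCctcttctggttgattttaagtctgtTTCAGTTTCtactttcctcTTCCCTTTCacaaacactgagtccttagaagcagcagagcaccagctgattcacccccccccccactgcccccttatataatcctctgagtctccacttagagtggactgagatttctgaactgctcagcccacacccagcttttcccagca
Ifitm3: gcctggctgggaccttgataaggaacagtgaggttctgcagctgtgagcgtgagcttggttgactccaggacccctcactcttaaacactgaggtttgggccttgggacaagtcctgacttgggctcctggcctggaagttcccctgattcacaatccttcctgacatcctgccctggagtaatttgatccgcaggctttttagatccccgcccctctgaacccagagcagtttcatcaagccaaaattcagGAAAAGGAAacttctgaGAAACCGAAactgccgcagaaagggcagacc

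**Figure D3:**
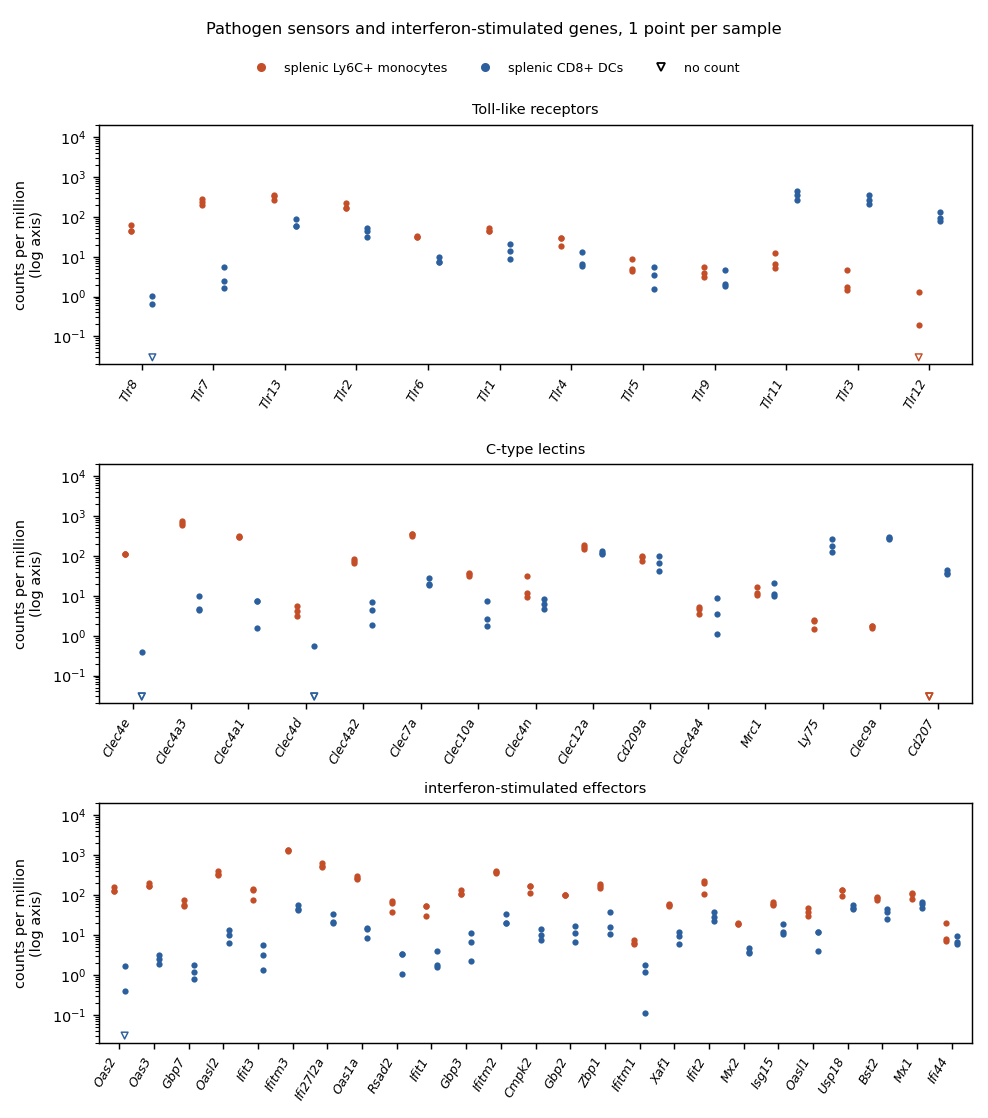
CPM on a log scale (y axis) of pathogen sensors and interferon-stimulated effectors (x axis), 1 point for each of the 3 monocyte and 3 CD8+ DC samples, with open triangles for no count. Tlr3, Tlr11 and Tlr12 lay lower in monocytes, and 26 of the 29 interferon-stimulated genes tested were called higher.

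Of 22 chemokine system genes tested (37 listed), 11 were higher and 10 lower, at a median of -0.05 that took either sign under other settings. The monocyte side held the ligands Ccl6 and Ccl9. Ccl6 had 638, 703 and 739 CPM in monocytes and 15.2, 15.9 and 13.5 CPM in CD8+ DCs (5.54 ± 0.33, adjusted p = 1.6e-10). Ccl9 had 393, 440.0 and 498 CPM in monocytes and 3.42, 3.84 and 0.898 CPM in CD8+ DCs (7.36 ± 0.39, adjusted p = 4.0e-11). The CD8+ DC side held Cxcl9, a ligand of CXCR3, with 4.78, 6.03 and 2.67 CPM in monocytes and 75.2, 52.4 and 124 CPM in CD8+ DCs (-4.20 ± 0.45, adjusted p = 3.5e-07). It also held the receptor itself, Cxcr3, with 1.53, 2.26 and 1.78 CPM in monocytes and 38.1, 40.8 and 58.8 CPM in CD8+ DCs (-4.58 ± 0.54, adjusted p = 1.2e-06). Samples of the groups were apart for all 4. Ligands named after their values were seen were Ccl22 (-3.59) and Ccl5 (-2.69) on the lower side, and Cxcl2 (4.47) and Ccl2 (3.32) on the higher side.

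Of 9 chemokine receptor genes listed for a cluster on chromosome 9, 7 were tested, 3 higher and 3 lower, at a median of -0.85. Ccrl2, which lies apart from the rest (chr9:111054835-111057270), was higher in monocytes (75.8, 77.8 and 91.5 against 17.6, 9.68 and 19.98 CPM; 2.37 ± 0.33, adjusted p = 9.6e-06). Neighbours among the rest went opposite ways. Ccr2 (chr9:124101950-124113557) was higher, as was Ccr1 (chr9:123962126-123968692; 13.8, 32.9 and 28.7 against 10.8, 8.22 and 7.97 CPM; 1.49 ± 0.46, adjusted p = 0.013). Ccr1 was not called without monocyte replicate 2 (adjusted p = 0.0681) or on log2(TPM + 0.1) (0.0881). Xcr1 was lower, as were Ccr9 (chr9:123678439-123783457), a gut homing receptor, with 1.15, 2.26 and 0.8899 against 49.8, 73.3 and 61.5 CPM (-5.34 ± 0.41, adjusted p = 5.0e-09), and Ccr3 (-3.18 ± 0.69; -2.57 without CD8+ DC replicate 2).

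Cytokine system genes leaned to monocytes, with 31 higher and 5 lower of 43 tested (50 listed), at a median of 1.33, and 23 of 29 receptors were higher. Csf3r, the receptor of granulocyte growth factor, had 375, 359.9 and 387 CPM in monocytes and 1.88, 1.86 and 0 CPM in CD8+ DCs (8.24 ± 0.62; 7.63 without CD8+ DC replicate 3). Tnfrsf1b, a TNF receptor, had 1913, 2226 and 2069.8 CPM in monocytes and 38.99, 54.7 and 64.9 CPM in CD8+ DCs (5.29 ± 0.26, adjusted p = 1.8e-11), and Il17ra 747, 707 and 639.8 CPM in monocytes and 80.5, 85.1 and 61.5 CPM in CD8+ DCs (3.20 ± 0.21, adjusted p = 7.1e-10), both named after their values were seen. All monocyte samples were high for these receptors. Among ligands, Osm, oncostatin M, had 76.9, 63.3 and 107 CPM in monocytes and 0.589, 0.5302 and 0.112 CPM in CD8+ DCs (7.62 ± 0.44, adjusted p = 1.1e-10). Il1rn, the interleukin 1 antagonist, had 24.7, 34.01 and 37.1 CPM in monocytes and 0, 0.133 and 0.561 CPM in CD8+ DCs (6.96 ± 0.47; 8.65 without CD8+ DC replicate 3), and Il1b 348, 323 and 280.1 CPM in monocytes and 52.1, 52.4 and 78.03 CPM in CD8+ DCs (2.38 ± 0.31, adjusted p = 3.8e-06; named after its values were seen). Tgfbi, a matrix protein induced by TGF-beta, was the most abundant of the list by TPM and had 1279, 1709.8 and 1446 CPM in monocytes and 297, 274 and 355 CPM in CD8+ DCs (2.26 ± 0.29, adjusted p = 3.0e-06). Tnfsf13 was higher too (5.81), with 60.05% of its exon length shared with a read-through gene. The lower side held Il12b, Kit, Flt3, Il6st (-0.78) and Tnf. Without CD8+ DC replicate 1 or without replicate 2, the lower calls fell to 4, and the call lost was that of Il6st. Tnf had 4.402, 3.39 and 1.91 against 9.66, 5.04 and 16.3 CPM (-1.70 ± 0.53, adjusted p = 0.014) and lost its call without CD8+ DC replicate 3 (adjusted p = 0.0890), without monocyte replicate 3 (0.0685) and on the second run of the monocyte libraries alone (0.0640).

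Costimulation genes held 4 higher, a share near that of all genes, and 6 lower of 17 tested (20 listed). The share lower was 35.3%, against 23.4% of all genes. Their median of -0.01 took either sign under other settings. Havcr2, TIM-3, which binds ligands of dying cells, had 95.5, 132 and 102 CPM in monocytes and 843, 861 and 707 CPM in CD8+ DCs (-2.87 ± 0.28, adjusted p = 1.1e-07). Cd86, which engages CD28, had 68.9, 51.7 and 66.7 CPM in monocytes and 213, 215 and 327 CPM in CD8+ DCs (-2.01 ± 0.25, adjusted p = 2.3e-06). Cd83, which stabilises class II at the surface, had 114, 62.8 and 85.1 CPM in monocytes and 431, 447 and 677 CPM in CD8+ DCs (-2.57 ± 0.29, adjusted p = 6.9e-07). Each was higher in every CD8+ DC sample. Sirpa, the receptor of CD47, had 1319.8, 1162 and 1332 CPM in monocytes and 117, 63.4 and 44.5 CPM in CD8+ DCs (4.09 ± 0.32, adjusted p = 4.9e-09), and CD4+ DCs held 1504 ± 477 CPM. Vsir, or VISTA, an inhibitory molecule, had 483, 557 and 565 CPM in monocytes and 82.5, 105 and 121 CPM in CD8+ DCs (2.38 ± 0.21, adjusted p = 2.6e-08), and Lgals9, a ligand of TIM-3, had 180.1, 157 and 223 CPM in monocytes and 24.98, 35.8 and 26.7 CPM in CD8+ DCs (2.68 ± 0.30, adjusted p = 5.5e-07). These 3 were higher in every monocyte sample. Cd47 was higher as well (0.93; 34.4% of exon length shared with another gene), while Cd40 (93.2, 78.2 and 82.4 against 66.4, 84.97 and 104 CPM), Cd80 (12.4, 10.7 and 11.4 against 14.1, 15.2 and 13.02 CPM) and Cd274 (45.6, 42.3 and 38.6 against 47.4, 35.8 and 38.5 CPM) were not called.

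Of 19 Fc and complement genes tested (21 listed) besides the sort marker Itgam, 14 were higher and 5 lower, at a median of 2.54. The share lower, 26.3%, was near the 23.4% of all genes. Fcgr1, the high-affinity IgG receptor, had 112, 135 and 142 CPM in monocytes and 0.353, 0.133 and 0.449 CPM in CD8+ DCs (8.59 ± 0.58, adjusted p = 8.9e-10). Fcer1g, its signalling chain, was the most abundant of the list by TPM and had 1138, 1242 and 1130.3 CPM in monocytes and 118, 83.2 and 59.4 CPM in CD8+ DCs (3.75 ± 0.24, adjusted p = 5.6e-10). C3, the central complement component, had 877, 839 and 994 CPM in monocytes and 2.59, 0 and 0.674 CPM in CD8+ DCs (9.64 ± 0.53; 11.22 without CD8+ DC replicate 1). C5ar1, a receptor of a fragment of C5, had 47.3, 61.9 and 57.1 CPM in monocytes and 0, 1.19 and 0 CPM in CD8+ DCs (7.17 ± 0.77; 11.66 without CD8+ DC replicate 2, 6.56 without CD8+ DC replicate 3). Monocyte samples were high and CD8+ DC samples low or at 0 for Fcgr1, C3 and C5ar1, while every CD8+ DC sample held 59.4 CPM or more of Fcer1g. The C1q chains went the other way, at low levels. They are 3 of 11 red pulp macrophage markers, of which 7 were lower and 3 higher, and the part of such cells was not tested. C1qb had 6.51, 7.91 and 6.36 against 33.9, 18.96 and 18.7 CPM (-1.77 ± 0.33, adjusted p = 1.9e-04), C1qc 3.06, 3.298 and 3.18 against 29.6, 16.2 and 15.6 CPM (-2.67 ± 0.36, adjusted p = 5.6e-06) and C1qa 0.383, 2.26 and 1.02 against 9.66, 4.37 and 4.94 CPM (-2.22 ± 0.59; -3.05 without monocyte replicate 2). Fcgrt, the neonatal Fc receptor, was lower (-1.03 ± 0.28, adjusted p = 0.0047), as was Cfp, properdin (143, 133 and 197 against 340.3, 281 and 196 CPM; -0.79). Cfp overlapped between the groups. The lower calls of the list fell from 5 to 4 without CD8+ DC replicate 1 or 2, without monocyte replicate 1 or 2, and on log2 TPM. The call lost was that of Cfp.

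Genes for taking up apoptotic cells split 6 higher and 5 lower of 12 tested (17 listed), at a median of 0.96. Lrp1, a scavenger receptor, had 949.9, 959 and 914 CPM in monocytes and 17.1, 12.5 and 9.77 CPM in CD8+ DCs (6.16 ± 0.28, adjusted p = 8.5e-12). Pros1, a bridging ligand, had 69.5, 68.1 and 65.6 CPM in monocytes and 3.42, 3.71 and 2.02 CPM in CD8+ DCs (4.47 ± 0.36, adjusted p = 9.9e-09). Axl, a receptor that binds such bridges, had 118, 92.5 and 135 CPM in monocytes and 32.6, 21.7 and 18.6 CPM in CD8+ DCs (2.24 ± 0.23, adjusted p = 2.4e-07). Those lower were Clec9a, Havcr2, Mertk, the scavenger receptor Cd36 (46.5, 56.8 and 32.04 against 335, 530.2 and 527 CPM; -3.36 ± 0.33, adjusted p = 9.8e-08) and Timd4 (0, 0.471 and 0.254 against 2.95, 5.302 and 2.36 CPM; -3.52).

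Oxidative burst genes leaned to monocytes, with 13 higher and 3 lower of 21, at a median of 1.04. Cybb, the catalytic subunit of the NADPH oxidase, had 1916, 1769 and 1871 CPM in monocytes and 156, 101 and 54.2 CPM in CD8+ DCs (4.16 ± 0.38, adjusted p = 5.2e-08). Gsr, which restores glutathione, had 907, 1278 and 934 CPM in monocytes and 115, 67.9 and 78.1 CPM in CD8+ DCs (3.58 ± 0.22, adjusted p = 2.9e-10), and Mgst1, a membrane glutathione transferase, had 503, 447 and 560.1 CPM in monocytes and 2.47, 3.98 and 0.449 CPM in CD8+ DCs (7.80 ± 0.50; 8.43 without CD8+ DC replicate 2). The lower ones were Sod1 (49.95, 48.6 and 49.2 against 246, 260.5 and 123 CPM; -2.09 ± 0.37, adjusted p = 1.4e-04), Txn1 (71.005, 87.3 and 75.8 against 188, 173 and 357 CPM; -1.61 ± 0.27, adjusted p = 5.8e-05) and Cat (126, 139.6 and 117 against 185, 174 and 272 CPM; -0.72 ± 0.22, adjusted p = 0.012). Cat lost its call on log2(TPM + 1) (adjusted p = 0.0767) and without CD8+ DC replicate 3 (0.0835). Gpx1 was the most abundant by TPM and not called (2731, 2898 and 2817 against 2101, 2079 and 1322 CPM; adjusted p = 0.14), but passed when only the 6 samples were fitted (adjusted p = 0.0137).

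Integrins, selectins and sphingosine receptors held 14 higher and 5 lower of 25 tested (29 listed) besides the sort markers, at a median of 0.98. Itgb2, the chain shared by leukocyte integrins, was the most abundant by TPM and had 1402, 1545 and 1629.6 CPM in monocytes and 565, 686 and 541 CPM in CD8+ DCs (1.35 ± 0.21, adjusted p = 3.4e-05). S1pr5, a sphingosine phosphate receptor for leaving tissue, had 87.7, 89.04 and 80.1 CPM in monocytes and 0, 0.795 and 0 CPM in CD8+ DCs (8.36 ± 0.78; 12.29 without CD8+ DC replicate 2, 7.76 without CD8+ DC replicate 3). Itga5, a fibronectin receptor chain, had 131, 94.8 and 103 CPM in monocytes and 14.02, 17.5 and 24.3 CPM in CD8+ DCs (2.55 ± 0.25, adjusted p = 1.1e-07). Vcam1 was lower with 4.59, 8.95 and 9.41 CPM in monocytes and 144, 114 and 101 CPM in CD8+ DCs (-3.93 ± 0.25, adjusted p = 3.1e-10), and so was Itgad (1.34, 1.32 and 0.127 against 22.7, 17.2 and 14.03 CPM; -4.26 ± 0.48, adjusted p = 5.7e-07). CD4+ DCs held 320.4 ± 13.2 CPM of Vcam1 and 52.5 ± 16.8 CPM of Itgad, above both groups compared.

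Of 14 neutrophil granule genes, 11 were tested. CD8+ DCs were at or near 0 for all 11, which passed the filter through the monocyte samples alone, so their direction (all higher, 9 called with DESeq2) is set by the filter. Their median was 7.85, or 6.94 with members at no count set to their bounds. Camp, cathelicidin, had 23.7, 15.6 and 34.3 CPM in monocytes against 2 counts over the CD8+ DC samples, a ratio of 306 (95% interval 84.8 to 2529; at least 131 without CD8+ DC replicate 3). S100a8, a calprotectin chain, had 34.8, 35.6 and 51.4 CPM against 1 count, a ratio of 1013 (95% interval 182 to 39996; at least 235 without CD8+ DC replicate 2). Its partner S100a9 had 28.5, 35.8 and 45.9 CPM in monocytes and 0, 0.663 and 0.225 CPM in CD8+ DCs (6.94 ± 0.63; 8.13 without CD8+ DC replicate 2). All monocyte samples held these RNAs and CD8+ DC samples were at or near 0. Granule genes named after their values were seen were Ngp (80.6, 78.02 and 130.1 against 0.118, 0.5302 and 0.561 CPM; 7.85), Ltf, lactoferrin (47.5, 41.2 and 56.3 against 0, 0.795 and 0.674 CPM; 6.59), and Mpo, myeloperoxidase (3.25, 1.13 and 4.45 against 0, 0 and 0 CPM). Over 13 neutrophil markers, 8 passed the filter, again through monocytes alone, with sums of 680, 651 and 826 CPM in monocytes against 2.00, 4.11 and 1.68 CPM in CD8+ DCs, but 9 of the 13 are granule genes themselves. Of the other 4, Csf3r was the most abundant marker at a mean of 374 CPM. Ly6g was at 0.383, 0 and 0.254 CPM, Cxcr2 at 0.383, 0.942 and 0 CPM and Retnlg at 0, 0.377 and 0.127 CPM in monocytes, which is at or near 0.

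The S100 genes sit close together on chromosome 3. Of 8 tested (11 listed), 6 were higher and S100a11 was lower, at a median of 2.96. S100a6 (chr3:90612894-90614414) had 458, 428 and 427 CPM in monocytes and 86.2, 38.7 and 33.8 CPM in CD8+ DCs (3.05 ± 0.41, adjusted p = 6.0e-06), and S100a10 (chr3:93555080-93564643), a partner of annexin A2, had 114, 115 and 149 CPM in monocytes and 7.89, 10.5 and 6.96 CPM in CD8+ DCs (3.91 ± 0.32, adjusted p = 1.1e-08). S100a9 lies at chr3:90692632-90695721 and S100a8 at chr3:90669071-90670034. S100a11 had 75.6, 69.9 and 84.2 against 119.8, 96.9 and 134 CPM (-0.61 ± 0.24, adjusted p = 0.046) and lost its call under several settings (adjusted p = 0.197 on log2(TPM + 1)). The Ms4a genes, membrane proteins encoded together on chromosome 19, held 7 higher and 1 lower of 8 tested (11 listed), at a median of 3.64. Ms4a4c (chr19:11404770-11427246) had 528, 558 and 602 CPM in monocytes and 40.4, 34.2 and 12.4 CPM in CD8+ DCs (4.28 ± 0.47, adjusted p = 5.4e-07) and Ms4a6b (chr19:11516512-11531256) 513, 647 and 524 CPM in monocytes and 52.8, 40.8 and 26.9 CPM in CD8+ DCs (3.80 ± 0.28, adjusted p = 2.2e-09). Ms4a6d had 89.4, 167 and 105 against 0.825, 0.265 and 0.225 CPM (8.04 ± 0.57; 8.85 without CD8+ DC replicate 1). Ms4a8a had 24.7, 33.1 and 35.2 CPM and no count in CD8+ DCs, at least 258-fold. The lower member was the B cell gene Ms4a1, which encodes CD20 (0, 0.377 and 0.254 against 17.7, 25.5 and 24.5 CPM; -6.41 ± 0.79; -7.06 without monocyte replicate 2).

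Promoters of granule and monocyte genes are shown for the C/EBP letters TTGCNNAA, since granule genes are known targets of this family. These letters, searched on both strands, occurred in 5 of 10 matched promoters of neutrophil granule genes, in 2 of 20 of monocyte identity genes and in 3 of 16 of DC1 genes. Over all matched genes 9.89% held them, against 12.99% of 2124 genes higher and 8.11% of 2183 lower in monocytes. A match shows no binding, and its absence says only that the window lacks these letters. Printed with matches in capitals are Mmp8 (chr9:7558179-7558478, plus strand), Ngp (chr9:110419558-110419857, plus strand) and Mgst1 (chr6:138140277-138140576, plus strand), the members with the largest fold changes among those with a match.
Mmp8: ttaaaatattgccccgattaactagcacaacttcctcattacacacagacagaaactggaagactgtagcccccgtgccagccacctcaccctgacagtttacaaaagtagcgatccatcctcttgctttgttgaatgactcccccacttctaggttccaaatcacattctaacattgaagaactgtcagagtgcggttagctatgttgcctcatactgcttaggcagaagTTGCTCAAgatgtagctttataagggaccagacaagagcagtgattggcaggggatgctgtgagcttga
Ngp: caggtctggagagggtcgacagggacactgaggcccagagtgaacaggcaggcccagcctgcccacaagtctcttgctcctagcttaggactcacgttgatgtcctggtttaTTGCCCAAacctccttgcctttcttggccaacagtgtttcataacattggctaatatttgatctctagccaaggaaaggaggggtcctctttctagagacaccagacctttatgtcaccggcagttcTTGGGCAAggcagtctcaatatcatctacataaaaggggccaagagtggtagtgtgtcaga
Mgst1: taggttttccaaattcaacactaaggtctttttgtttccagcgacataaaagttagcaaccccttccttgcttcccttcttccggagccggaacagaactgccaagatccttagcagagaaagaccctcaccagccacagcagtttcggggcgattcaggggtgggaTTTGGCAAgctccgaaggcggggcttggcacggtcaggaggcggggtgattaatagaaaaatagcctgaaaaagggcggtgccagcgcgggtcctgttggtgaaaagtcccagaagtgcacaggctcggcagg

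The PU.1 letters GAGGAAGT occurred in 4.17% of all matched promoters, 5.08% of genes higher and 4.35% of genes lower, and in 4 of 10 promoters of neutrophil granule genes. The ETS-IRF letters GGAANNGAA, which match the ISRE letters at all places but the second, occurred in 9.12%, 9.37% and 7.83%, in 2 of 22 promoters of interferon-stimulated genes, in none of 16 of DC1 genes and in 4 of 7 of S100 genes.

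Cell cycle genes were lower in monocytes: of 44, 40 were lower and 3 higher, at a median of -2.99. All 18 replication genes and all 19 mitosis genes were lower. Mcm6, of the replicative helicase, was the most abundant by TPM and had 22.97, 18.3 and 22.4 CPM in monocytes and 159, 254 and 264 CPM in CD8+ DCs (-3.42 ± 0.23, adjusted p = 8.8e-10). Cdk1, the mitotic kinase, had 0.191, 0.377 and 3.05 CPM in monocytes and 61.8, 102 and 74.8 CPM in CD8+ DCs (-5.99 ± 0.49; -7.92 without monocyte replicate 3). Cenpf, a kinetochore protein, had 0.191, 0.377 and 0.127 CPM in monocytes and 23.9, 17.6 and 27.96 CPM in CD8+ DCs (-6.44 ± 0.61; -7.08 without monocyte replicate 2). Bub1, a checkpoint kinase, had 2 counts over the monocyte samples and 11.3, 11.002 and 27.5 CPM in CD8+ DCs, a ratio of 197 (95% interval 54.5 to 1625). Mki67, Top2a and Rrm2, named after their values were seen, had log2 fold changes of -4.27 ± 0.25, -5.01 ± 0.36 and -5.25 ± 0.48. No CD8+ DC sample overlapped a monocyte sample for any of these. The higher genes were inhibitors of the cycle. Cdkn1a, p21, had 101, 112 and 118 CPM in monocytes and 9.42, 12.2 and 24.4 CPM in CD8+ DCs (2.84 ± 0.29, adjusted p = 2.3e-07). Cdkn2d, p19, had 86.1, 71.1 and 90.5 CPM in monocytes and 13.3, 15.8 and 16.6 CPM in CD8+ DCs (2.44 ± 0.28, adjusted p = 7.1e-07). Cdkn1b had 27.8, 27.04 and 25.04 against 20.1, 14.4 and 18.97 CPM (0.57 ± 0.23, adjusted p = 0.045) and lost its call under 9 of the 18 other settings (adjusted p = 0.174 without CD8+ DC replicate 2). The 9 include the call with a fold of at least 2 added. Between CD8+ and CD4+ DCs, 4 of the 44 genes were called, against 30.3% of all genes tested. Mcm6 was at 0.47 ± 0.21, adjusted p = 0.097 and Cdk1 at 0.08 ± 0.36, adjusted p = 0.89.

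Of 29 genes of glycolysis and the pentose phosphate path, 11 were higher and 4 lower, at a median of 0.41 (0.22 without CD8+ DC replicate 2, 0.24 with monocyte run 1 only). Isoforms and regulators of the same step went opposite ways. Ldha had 279, 369 and 347 CPM in monocytes and 818, 1055 and 883 CPM in CD8+ DCs (-1.47 ± 0.28, adjusted p = 2.5e-04) and was lower. Ldhb, the other lactate dehydrogenase chain, had 44.98, 39.01 and 40.3 CPM in monocytes and 0.589, 0.398 and 0.898 CPM in CD8+ DCs (5.98 ± 0.50, adjusted p = 1.6e-08) and was higher. Pfkfb3, a regulator of phosphofructokinase, was lower (59.9, 53.05 and 49.5 against 124, 114 and 169 CPM; -1.33 ± 0.21, adjusted p = 4.8e-05), and its relative Pfkfb4 was higher (194, 152 and 218 against 13.8, 12.7 and 13.8 CPM; 3.80 ± 0.33, adjusted p = 2.6e-08). The glucose transporter Slc2a3 was lower (3.06, 1.79 and 2.797 against 52.9, 18.96 and 11.7 CPM; -3.48 ± 0.57; -2.62 without CD8+ DC replicate 1), and the transporter Slc2a6 was higher (128, 112 and 171 against 12.3, 15.1 and 9.99 CPM; 3.46 ± 0.27, adjusted p = 4.6e-09). G6pdx, which starts the pentose phosphate path, had 255, 256 and 257 CPM in monocytes and 29.2, 30.6 and 31.998 CPM in CD8+ DCs (3.06 ± 0.18, adjusted p = 1.0e-10; 13.6% of exon length shared with Ikbkg). Pkm was the most abundant by TPM and had 1307, 1267 and 1493 against 553, 768 and 655 CPM (1.04 ± 0.24, adjusted p = 0.0015).

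Of 76 respiratory chain genes tested (81 listed), 1 was higher and 19 were lower, at a median of -0.34. The share lower, 25.0%, was near the 23.4% of all genes, and the share higher was 1.32% against 22.8%. Ndufa12 (8.804, 9.61 and 11.6 against 40.1, 61.1 and 30.99 CPM; -2.13 ± 0.41, adjusted p = 2.6e-04) and Atp5g1 (6.699, 10.4 and 9.03 against 30.04, 22.9 and 22.1 CPM; -1.51 ± 0.38, adjusted p = 0.0029) had large gaps, and Ndufa4 was the most abundant by TPM (109, 105 and 106 against 243, 339 and 213 CPM; -1.31 ± 0.38, adjusted p = 0.0086). The lower calls depended on the setting, from 10 on log2(TPM + 0.1), where the median was -0.19, and 11 without monocyte replicate 3, to 30 with only the 6 samples fitted. Of 85 cytosolic ribosomal protein genes tested (88 listed), 40 were lower and none higher, at a median of -0.68. Rps29 had 20.7, 14.5 and 18.7 CPM in monocytes and 85.1, 88.3 and 65.01 CPM in CD8+ DCs (-2.15 ± 0.27, adjusted p = 2.6e-06). Rpl36a was lower (-1.96 ± 0.63, adjusted p = 0.016) but not without CD8+ DC replicate 1 (adjusted p = 0.0503). Beside this stands the share of alignments with more than 1 place, which were not counted: 22.5% to 22.8% in CD8+ DCs and 15.8% to 17.8% in monocytes. Its part in the ribosomal result was not tested.

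Cholesterol genes had shares near those of all genes, with 8 higher (28.6%) and 7 lower of 28 tested (29 listed), at a median of 0.08 that took either sign under other settings. The lower calls fell to 4 without CD8+ DC replicate 3 and on log2(TPM + 1). Apoe, a lipid carrier, was the most abundant by TPM and had 1390.4, 1694 and 1200.0 CPM in monocytes and 176, 129 and 88.2 CPM in CD8+ DCs (3.45 ± 0.38, adjusted p = 4.6e-07). Nr1h3, the sterol sensor LXR-alpha, had 18.8, 24.8 and 16.7 CPM in monocytes and 6.597, 1.86 and 4.15 CPM in CD8+ DCs (2.24 ± 0.48, adjusted p = 7.8e-04). Both were higher in every monocyte sample. Enzymes of synthesis went both ways, with Mvd higher (1.98 ± 0.24, adjusted p = 1.4e-06) and Pmvk lower (-1.06 ± 0.24, adjusted p = 0.0013). Scap, which escorts the sterol-responsive factors, was lower (37.1, 35.3 and 40.9 against 91.5, 125 and 89.6 CPM; -1.43 ± 0.20, adjusted p = 9.2e-06; 18.9% of exon length shared with another gene). Lss (-1.12 ± 0.31, adjusted p = 0.0065) lost its call on log2(TPM + 1) (adjusted p = 0.0516), and Nsdhl (-0.86 ± 0.33, adjusted p = 0.042) under 8 settings (adjusted p = 0.208 without CD8+ DC replicate 2). The 8 include the call with a fold of at least 2 added.

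Among the most abundant genes by TPM, Tmsb4x, which binds actin monomers, had 5682, 6159 and 6103 CPM in monocytes and 17029, 17665 and 16926 CPM in CD8+ DCs (-1.52 ± 0.25, adjusted p = 4.9e-05). Actb had 4046, 3826 and 4208 CPM in monocytes and 8511, 11638 and 8562 CPM in CD8+ DCs (-1.25 ± 0.29, adjusted p = 0.0015). Both were lower in every monocyte sample. Tyrobp, the signalling adaptor of TREM receptors, had 1701, 1588 and 1825 CPM in monocytes and 415, 491 and 271 CPM in CD8+ DCs (2.12 ± 0.25, adjusted p = 9.4e-07). Gm22133 and Gm26377 lie wholly within Ftl1 and Eef1a1, and Gm42418 shares 36.9% of its exon length with another gene, so their counts are uncertain. Gm42418 had 17343, 25892 and 19117 against 9937, 6195 and 9758 CPM (1.27).

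By lists, 16 had more members higher than lower in monocytes and 9 had more lower, while the chromosome 9 receptors were even. The 16 include the neutrophil granule genes, whose direction is set by the filter. The 9 include the sort markers, whose direction is set by the gates. Apart from these 2 lists, monocyte identity, interferon-stimulated, Ms4a, S100, and Fc and complement genes had the highest medians. DC1, pan-DC, MHC class II and cell cycle genes had the lowest. The ranked medians include sort markers that are members of these lists, so the gates set part of them. Without sort markers the median was 5.01 for monocyte identity, 2.54 for Fc and complement, -3.76 for pan-DC and -2.26 for MHC class II genes. The lists hold members chosen for what they are known to do, so a list of identity genes takes its direction from that choice.

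**Figure D4:**
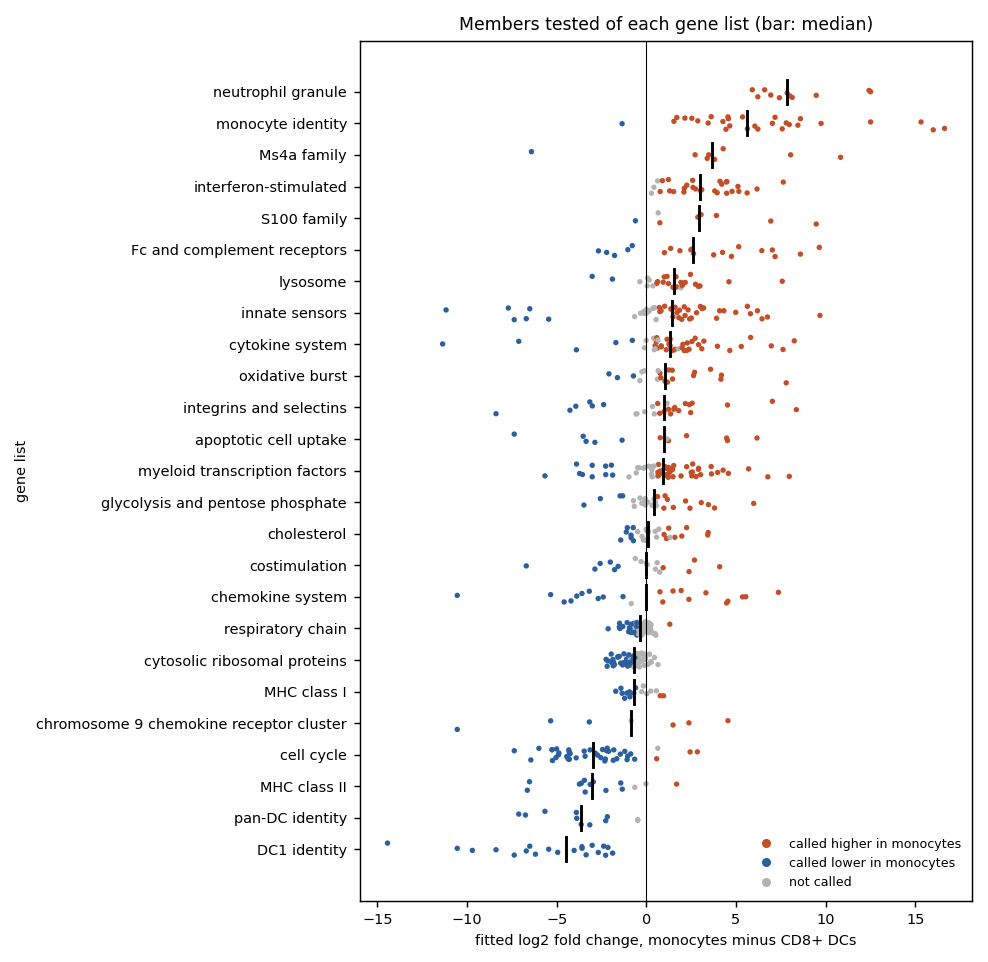
Log2 fold change of monocytes minus CD8+ DCs (x axis) for the tested members of each gene list but the sort markers (y axis), 1 point per gene, with a bar at the list's median. Medians ran from -4.49 for DC1 genes to 7.85 for neutrophil granule genes (6.94 with members at no count set to their bounds). The direction of the granule genes is set by the filter. Sort markers that are members of another list are drawn with that list and enter its median. Folds of genes with no count in a group depend on the prior count.

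Genes with like levels were those whose 95% interval of the log2 fold change from limma voom lay wholly within -0.5 to 0.5. This held for 420 of the 12702 (3.31%), for 123 to 203 with a sample left out, and for 825 with only the 6 samples fitted. The 420 genes were more abundant than most, with a median of 42.7 TPM in CD8+ DCs against 15.5 for all genes tested. The rule favours abundant genes, since intervals are wider at low counts. The most abundant was Eef2, an elongation factor, with 2111, 2384 and 2306 CPM in monocytes and 2101, 2105 and 2364 CPM in CD8+ DCs (voom interval -0.28 to 0.38). Slc25a5, the exchanger of ADP and ATP in mitochondria, had 1132, 1096 and 1114 CPM in monocytes and 989, 1183 and 1168 CPM in CD8+ DCs (-0.37 to 0.38). Cdc42, a GTPase of the cytoskeleton, had 824, 859 and 866 CPM in monocytes and 729, 883 and 924 CPM in CD8+ DCs (-0.35 to 0.38), and Arpc2, of the actin-branching complex, 658, 683 and 615 CPM in monocytes and 614, 507 and 814 CPM in CD8+ DCs (-0.38 to 0.46). Samples of the groups overlapped for these 4. H2-T23, a class I molecule that presents leader peptides, was alike too (-0.46 to 0.43), as were Eif3f (-0.32 to 0.45) and Copz1 (-0.27 to 0.48). Arpc2 was called between CD8+ and CD4+ DCs (0.94 ± 0.21, adjusted p = 0.0026). Nme2 was alike (-0.48 to 0.32) and shares exons with Gm20390.

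Markers of other cell types were summed in each sample, after a sort that left out cells with lineage markers, and their part in the results was not tested. Over 8 markers of Ly6C-low monocytes, 6 were higher and none lower, with sums of 4249, 4541 and 4233 CPM in monocytes against 749, 772 and 769 CPM in CD8+ DCs. Nr4a1 was the most abundant in both. Of these markers Ace, a peptidase, had 832, 1174 and 706 against 7.66, 12.7 and 2.58 CPM (6.90 ± 0.58, adjusted p = 1.6e-08), Pou2f2 95.1, 97.4 and 90.3 against 2.95, 2.65 and 1.796 CPM (5.25 ± 0.38, adjusted p = 2.4e-09) and Spn 94.5, 89.6 and 104 against 20.7, 11.1 and 8.76 CPM (2.83 ± 0.31, adjusted p = 4.0e-07), while Treml4 had 262, 389 and 269.8 against 225, 297 and 362 CPM and was not called. Over 9 markers of type 2 DCs, 8 were tested, 4 higher and 2 lower, with sums of 1503, 1328 and 1487 CPM against 281, 157 and 108 CPM, mostly from Sirpa. The defining Cd4 was at 0, 0.0942 and 0.381 CPM in monocytes and 17.9, 3.05 and 1.91 CPM in CD8+ DCs (-5.37 ± 1.00; -3.73 without CD8+ DC replicate 1, -6.58 without monocyte replicate 3), and Esam at 0.766, 1.04 and 0.254 and 8.48, 6.495 and 8.65 CPM (-3.45 ± 0.41; -4.03 without monocyte replicate 2). Mgl2 (2.78 ± 0.77, adjusted p = 0.0061) and Clec10a (3.10 ± 0.49; 3.96 without CD8+ DC replicate 1), lectins of type 2 DCs, were higher in monocytes at 4.71 to 37.3 CPM.

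Over 11 red pulp macrophage markers, 3 were higher and 7 lower (Vcam1, Slc40a1, Cd5l, Timd4 and the C1q chains), with sums of 308, 484 and 325 CPM in monocytes and 535, 394 and 388 CPM in CD8+ DCs. Slc40a1, the iron exporter, had 8.42, 6.22 and 9.03 against 143, 103 and 74.8 CPM (-3.77 ± 0.40, adjusted p = 3.5e-07). Spic, the factor of these macrophages, had 17.2, 41.9 and 15.3 against 13.2, 8.62 and 15.2 CPM (1.02 ± 0.40; 0.39 without monocyte replicate 2), and Hmox1, which breaks down heme, 145, 318 and 143 against 118, 96.9 and 131 CPM (0.81 ± 0.30, adjusted p = 0.036). Monocyte replicate 2 was the highest sample for both, and neither was called without it or without CD8+ DC replicate 1 or 2. Hmox1 was the most abundant marker in monocytes and Vcam1 in CD8+ DCs. Over 8 plasmacytoid DC markers, 6 were tested and 4 were lower, with sums of 78.3, 92.5 and 94.1 CPM against 251, 183 and 141 CPM, and Tcf4 was the most abundant. Siglech had no count in monocytes and 34.99, 13.3 and 3.82 CPM in CD8+ DCs. Over 8 erythroid markers, 4 were tested and all 4, globins, were lower, with sums of 5.55, 3.96 and 5.47 CPM against 144, 28.2 and 67.0 CPM. Hbb-bs was the most abundant in both (-3.99 ± 0.76; -3.29 without CD8+ DC replicate 1), while Slc4a1 had no count in monocytes.

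Over 4 plasma cell markers, 3 were tested and 2 were higher, with sums of 31.4, 33.8 and 72.7 CPM in monocytes against 13.9, 7.29 and 3.82 CPM. Jchain, which joins antibody chains, had 24.5, 25.6 and 60.9 against 9.896, 2.12 and 0.225 CPM (3.18 ± 0.86; 5.02 without CD8+ DC replicate 1), and Sdc1 6.12, 6.88 and 9.28 CPM in monocytes against 2 counts in CD8+ DCs, a ratio of 92.6 (95% interval 25.6 to 765; at least 40.7 without CD8+ DC replicate 1). Over 10 B cell markers, 3 were tested and 1 was lower, with sums of 34.1, 48.0 and 36.2 CPM in monocytes and 56.0, 52.8 and 38.8 CPM in CD8+ DCs. Cd79b was the most abundant in monocytes and Ms4a1 in CD8+ DCs, while Fcer2a and Blk had no count in monocytes and Pax5 none in CD8+ DCs. Over 9 T cell markers, 2 were tested and 1 was lower, with sums of 0.766, 1.88 and 2.54 CPM against 17.3, 4.90 and 6.74 CPM. Cd5 was the most abundant in CD8+ DCs (0, 0 and 0.127 against 6.24, 2.65 and 4.04 CPM), and Cd3e and Bcl11b had no count in monocytes. None of 8 NK cell markers and none of 6 platelet markers was tested, with sums of at most 3.05 CPM and 3.89 CPM in any sample. Over 9 markers of eosinophils, mast cells and basophils, only Ccr3 was tested, and sums were at most 17.1 CPM. Over 8 markers of stroma and endothelium, 3 were tested, 1 higher and 2 lower, with sums of 6.32, 9.23 and 6.10 CPM against 25.2, 30.9 and 11.2 CPM. The most abundant of these were Pdgfrb in monocytes and Kdr in CD8+ DCs (1.91, 1.51 and 1.14 against 15.1, 26.6 and 9.88 CPM; -3.51 ± 0.39, adjusted p = 6.1e-07).

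**Figure D5:**
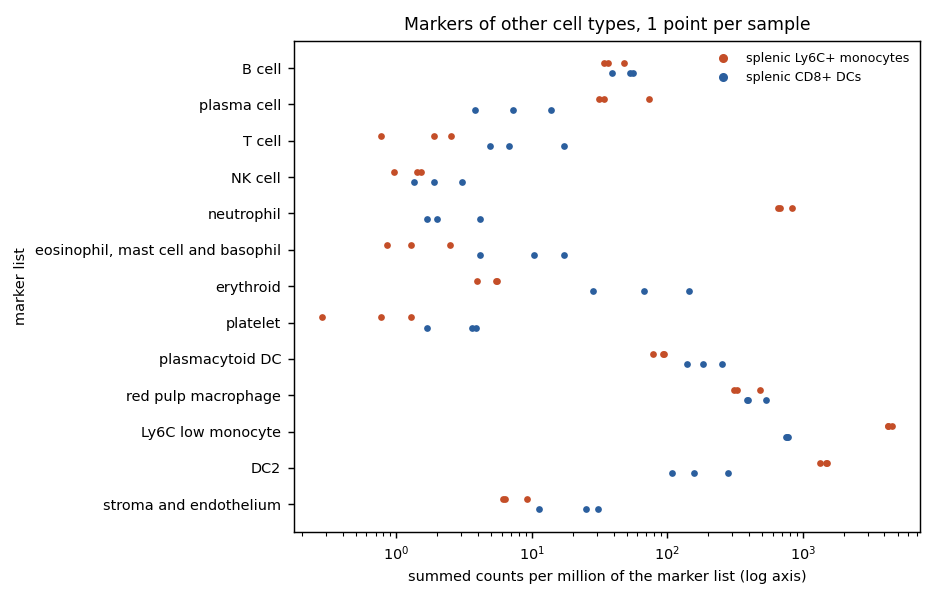
Summed CPM of the markers of each other cell type (y axis) on a log scale (x axis), 1 point for each of the 3 monocyte and 3 CD8+ DC samples. Neutrophil, plasma cell, Ly6C-low monocyte and type 2 DC sums were higher in every monocyte sample, and erythroid, plasmacytoid DC, T cell, platelet, stroma and endothelium, and eosinophil, mast cell and basophil sums in every CD8+ DC sample.

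Of the 244 genes named by rule and tested, 226 were called, and 210 of these kept their direction and call under all 18 other settings. These settings include the main call with a fold of at least 2 added. No named gene changed direction. An exact permutation test of 3 against 3 samples cannot give a two-sided p below 0.10, so the tests rest on a spread estimated over the 15 samples.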

How the data were processed

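The authors trimmed the reads, dropped those under 30 nt, aligned them to mm10 with STAR 2.4.0j and assigned those with a unique place to Ensembl 75 genes with featureCounts (Subread 1.5.2, overlap of at least 0.5). The deposited counts are sums over runs, with no normalization. The authors divided counts by exon length and scaled each sample to the same sum to deposit TPM. Exon length is the union of a gene's exons, per the file headers. A read on 2 overlapping genes counted for both, so the exon length shared with another gene is given where it is over 10%. Symbols came from GENCODE vM21 and matched 37607 of 38924 identifiers.

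From these counts, a model with a mean per group over all 15 samples (5 groups) was fitted with edgeR 4.0.16 in R 4.3.3 (TMM, quasi-likelihood test). Intervals for like levels used limma 3.58.1 voom, and other settings used DESeq2 1.42.0, limma on log2 TPM and left-out samples. Named genes were the members of the sort-marker, DC, DC1 and monocyte lists, the 12 largest folds each way, the 10 highest TPM in each group, up to 4 called members each way and the highest TPM of each other list, and the 10 most abundant genes with like levels. Members and lists were chosen with earlier results of these data known. Some genes that met this rule are left out of the text. Other list members were named after their values were seen.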

Additional observations from a re-analysis of the deposited data

How the results depend on the processing

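Of the 244 tested genes picked by the naming rule, 225 kept their direction and their side of the threshold under all 18 other settings, and none reversed. The 18 are the refits listed here and the main call with a fold of at least 2 added. The calls numbered 2928 higher and 2943 lower with RLE size factors, 3003 and 3044 with DESeq2, 3090 and 2980 with limma voom, 3290 and 2555 on log2(TPM + 1), and 3141 and 2509 on log2(TPM + 0.1). They numbered 2982 and 3098 of 20087 genes with no filter, and 2841 and 2928 of 12325 with edgeR's own filter. With only the 6 samples they were 3300 and 3316, and with a replicate block on those 6 they were 3230 and 3140. With a sample left out they ranged from 2507 to 2707 and from 2511 to 2785. Deviations of samples with the same replicate number correlated at -0.0107, -0.0378 and 0.0226 across genes, which are not independent replicates. These values cannot show whether samples of the same number came from the same mice, and the labels give no pool identity. The main fit treats the samples as unpaired. The count of genes with like levels depended most on the setting: 420 became 0 with a half-width of 0.3, 4137 with a half-width of 1, 825 with only the 6 samples, and 123 to 203 with a sample left out, by the construction of the interval. Depth limits the folds of genes near 0 in a group.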
